A study of Homo sapiens with 72 samples.

Results

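The mRNAs described here encode amino acid transporters of the plasma membrane that are known as targets of the cell's response to amino acid shortage or as its main routes for glutamine, leucine and cystine. They are SLC3A2, SLC7A5, SLC7A6, SLC7A11, SLC7A1, SLC1A5, SLC1A4, SLC38A1, SLC38A2 and SLC6A9, a list of names drawn up with earlier results of these data known. All 10 were found among the 44659 gene names of the count table. SLC6A9 had too few counts to be tested, so that comparisons rest on the other 9.

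The part of the study used here examined how a lack of glutamine, or of the tRNA-modifying protein CTU2, alters mRNA levels and mRNA decay in melanoma cells. Cytoplasmic RNA of A375, an established human skin melanoma line, was sequenced in 72 QuantSeq libraries, which read the 3′ ends of polyadenylated RNA. In the siRNA experiment, cells received a pool of siRNAs against CTU2 (siCTU2) or the control siRNA siGL2 for 42 h. In the medium experiment, cells were kept for 18 h in medium lacking glutamine (mQ) or in the control medium that contained it (pQ). Every culture then received triptolide at 25 µM, which blocks transcription, either alone (T arm) or with cycloheximide at 100 µg/ml, which blocks translation (TCHX arm). Cells were harvested at 0, 3 or 5 h, which gave 24 groups of 3 replicates, and the 0 h cells were harvested as soon as the drugs had been added. All groups thus share 1 cell line and exposure to triptolide, and the siRNA groups also share transfection. The sources do not say whether replicates came from separate cultures, so p-values measure the spread between these samples, which may be technical.

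Amino acids cross the plasma membrane through carriers that either exchange one amino acid for another or use the sodium gradient to concentrate them. The single-pass glycoprotein encoded by SLC3A2 (4F2hc, CD98) is the heavy chain that brings light chains such as the leucine exchanger LAT1 (SLC7A5) and the cystine/glutamate exchanger xCT (SLC7A11) to the surface, and exchangers of this kind depend on glutamine or glutamate that other carriers have brought in. When amino acids run short, uncharged tRNA activates the kinase GCN2, translation of the transcription factor ATF4 rises, and ATF4 binds composite elements in genes for transporters and amino acid synthesis.

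Libraries held 5987692 to 15534331 counts. Of the 8 markers of the melanocytic lineage, SOX10 (226 to 424 CPM, counts scaled to an equal total in each library), S100B (241 to 375.1) and MITF (109.7 to 377) were present in every 0 h library of the T arm (ranges over the 12 libraries), while MLANA (0 to 0.866) and TYR (0 to 1.02), a melanosome antigen and an enzyme of pigment synthesis, were near 0. DCT (21.6 to 111.4 CPM), PAX3 (8.37 to 17.7) and PMEL (2.21 to 8.09) also had counts in each of these libraries. The 7 markers of other cell types were at most 0.527 CPM, and ALB, CD3E, CDH1 and PECAM1 had 0 counts. CTU2 had 28, 11 and 17 counts in siCTU2 at 0 h (T arm) against 183, 195 and 196 in siGL2, a log2 change of -3.71 (SE 0.28, adjusted p = 9.16e-09) by edgeR's quasi-likelihood test with Benjamini-Hochberg adjustment, which applies to all adjusted p-values below. With 117 counts of CTU2, the library labelled siCTU2 TCHX 5 h (replicate 3) goes against its label, as there were at most 28 in every other siCTU2 library. At 10.4 CPM of CTU2, it lay between the other siCTU2 libraries (at most 2.95) and the siGL2 libraries (at least 17.5). What this library holds was not tested. It was among 3 libraries of replicate 3 with counts for 19896 to 20364 genes (with mQ T 5 h and pQ TCHX 0 h), against 15507 to 17495 in the other 69. At 5 h, replicate 3 correlated with the other replicates of its group at r = 0.876 to 0.942 across 8224 genes, which are not independent, against 0.950 or more between all other replicates of a group. The comparisons over time therefore use 3 h, and some of the comparisons that rest on these 3 libraries are also given without them. JUN, a short-lived mRNA, was lower at 3 h in the T arm in all 4 conditions, by -4.47 to -5.40 on the log2 scale.

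At 0 h, glutamine withdrawal raised 8 of the 9 tested transporter mRNAs and CTU2 depletion raised 5. In mQ against pQ, the 8 rises lay between 1.14 (SLC7A1) and 2.03 (SLC7A5) on the log2 scale and the median over the 9 members was 1.23, against 0.01 over all 12374 genes tested. Among all genes, 12.5% were called higher and 12.4% lower, whereas 8 of the 9 members were called higher and 0 lower. In siCTU2 against siGL2, the rises concerned SLC7A11, SLC3A2, SLC7A6, SLC7A5 and SLC1A4. Here the members' median was 0.41, against 0.00 over all 12292 genes, and 17.8% of all genes were called higher and 18.2% lower, whereas 5 of the 9 members were called higher and 0 lower. The summed level of the 10 mRNAs was 1417, 1474 and 1497 CPM in pQ and 3721, 3666 and 4221 CPM in mQ. The sum was 1413, 1403 and 1355 CPM in siGL2 and 2224, 2343 and 2073 CPM in siCTU2. In bulk samples, a larger share of one kind of cell and more RNA per cell cannot be told apart.

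**Figure D1:**
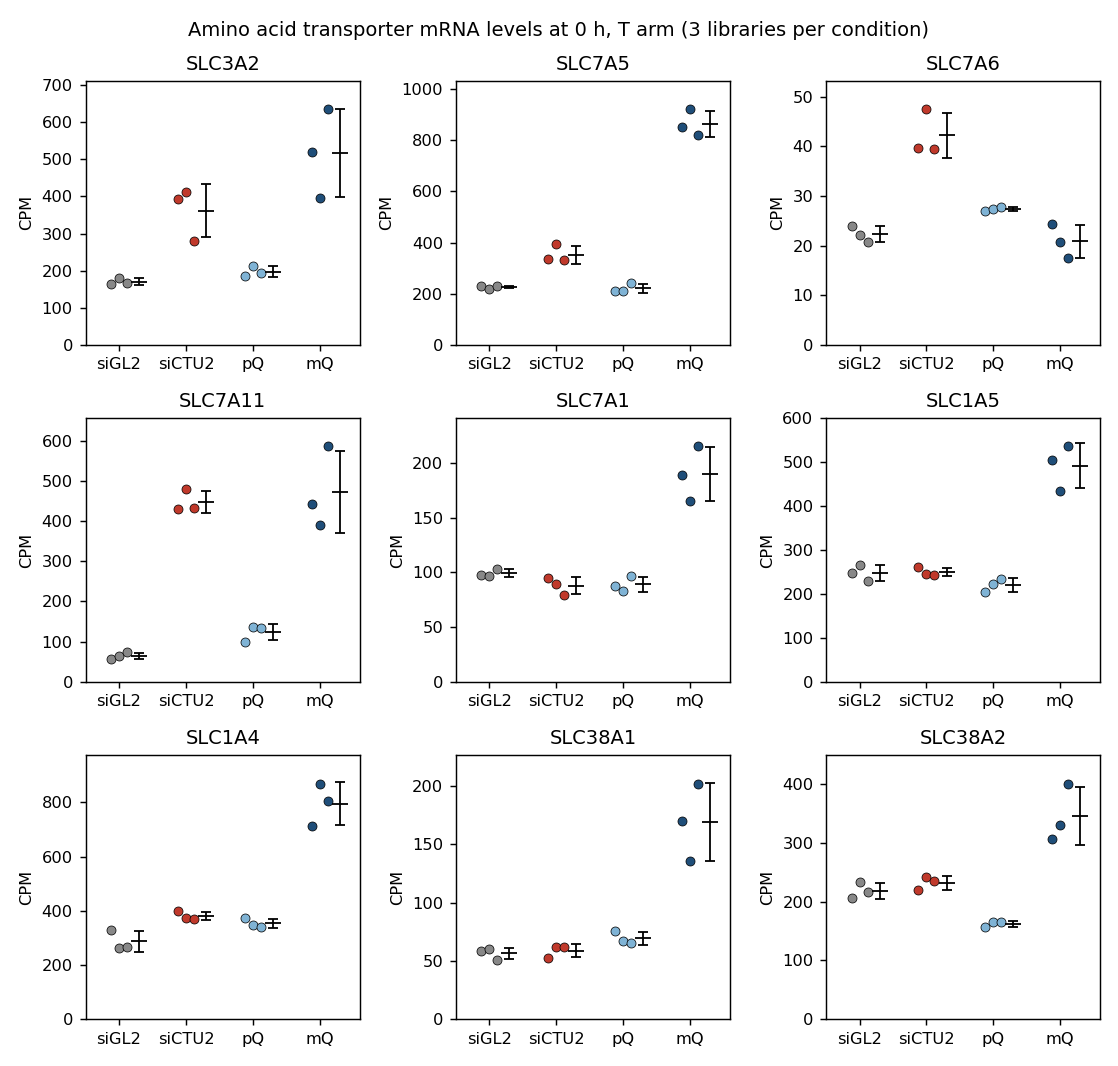
mRNA level (CPM, linear axis from 0) of each transporter in the 3 T arm libraries of each condition at 0 h, where points are libraries, dashes are means and bars are SD. The mQ libraries of SLC7A5 sit at 823 to 922 CPM, above all pQ libraries (209.8 to 240.5 CPM).

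**Figure D2:**
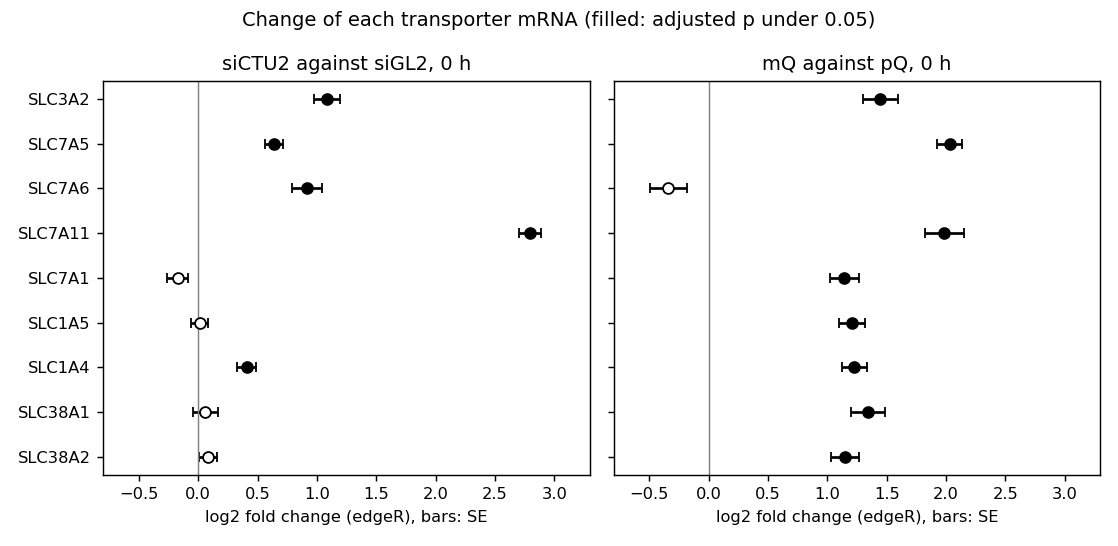
log2 fold change at 0 h with its standard error for each tested transporter, for siCTU2 against siGL2 and for mQ against pQ, with filled points where the adjusted p was under 0.05. SLC7A11 moved furthest in siCTU2 (2.80) and SLC7A5 in mQ (2.03), and SLC7A6 was 0.92 in siCTU2 and -0.34, not past the threshold, in mQ.

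The members' promoters were searched for the core of the amino acid response element, TGATGNAAN, on both strands. RefSeq windows of GRCh38.p14, from 250 bases before to 50 bases after an annotated start, covered 9 of the 10 genes with 15 windows. SLC7A11 had no window and was not searched. The core was in 5 of the 15 windows and in 5 of the 9 genes (55.6%), against 1268 of 35116 windows (3.61%) and 1215 of 27305 genes (4.45%) overall. Members were listed partly as known targets of the response to amino acid shortage, so their excess over all genes tests nothing. It lay in 1 of the windows of each of SLC3A2, SLC1A5, SLC1A4, SLC38A1 and SLC7A1, and in none of those of SLC7A5, SLC7A6, SLC38A2 and SLC6A9. A match is a description of the letters, and a window without one says only that these letters are not in it. The 5 windows with the core follow here with the match in capitals, and after them the window of SLC7A5, which had the largest rise in mQ and no match. All are written 5′ to 3′ on the gene's strand.
SLC3A2, chr11:62881449-62881748, strand plus: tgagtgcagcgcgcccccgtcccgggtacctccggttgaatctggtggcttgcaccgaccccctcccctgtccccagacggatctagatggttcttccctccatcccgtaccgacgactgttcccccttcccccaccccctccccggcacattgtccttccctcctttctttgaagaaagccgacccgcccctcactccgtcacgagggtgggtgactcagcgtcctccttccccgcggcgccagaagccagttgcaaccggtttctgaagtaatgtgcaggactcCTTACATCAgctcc
SLC1A5, chr19:46784765-46785064, strand minus: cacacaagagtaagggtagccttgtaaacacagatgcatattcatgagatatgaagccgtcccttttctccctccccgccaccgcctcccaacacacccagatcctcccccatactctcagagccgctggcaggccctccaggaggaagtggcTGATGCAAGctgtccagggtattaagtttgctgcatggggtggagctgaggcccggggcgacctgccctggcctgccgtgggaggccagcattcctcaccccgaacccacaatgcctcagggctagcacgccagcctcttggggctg
SLC1A4, chr2:64989149-64989448, strand plus: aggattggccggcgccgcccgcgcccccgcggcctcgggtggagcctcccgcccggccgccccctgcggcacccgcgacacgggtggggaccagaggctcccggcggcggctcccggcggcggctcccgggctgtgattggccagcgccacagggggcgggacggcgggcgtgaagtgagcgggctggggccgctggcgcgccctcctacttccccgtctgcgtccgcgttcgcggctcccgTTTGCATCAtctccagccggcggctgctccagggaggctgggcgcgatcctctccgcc
SLC38A1, chr12:46266467-46266766, strand minus: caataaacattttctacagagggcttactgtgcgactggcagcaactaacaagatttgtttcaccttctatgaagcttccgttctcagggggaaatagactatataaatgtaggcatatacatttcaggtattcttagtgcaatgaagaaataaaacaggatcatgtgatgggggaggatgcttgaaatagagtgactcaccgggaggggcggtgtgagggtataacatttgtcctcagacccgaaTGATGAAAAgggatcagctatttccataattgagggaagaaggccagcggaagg
SLC7A1, chr13:29595639-29595938, strand minus: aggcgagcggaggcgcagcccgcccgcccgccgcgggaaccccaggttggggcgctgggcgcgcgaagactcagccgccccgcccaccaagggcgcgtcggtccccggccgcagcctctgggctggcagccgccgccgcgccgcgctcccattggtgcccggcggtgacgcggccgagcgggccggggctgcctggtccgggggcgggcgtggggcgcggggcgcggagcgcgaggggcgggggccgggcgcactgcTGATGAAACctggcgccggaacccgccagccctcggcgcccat
SLC7A5, chr16:87869458-87869757, strand minus: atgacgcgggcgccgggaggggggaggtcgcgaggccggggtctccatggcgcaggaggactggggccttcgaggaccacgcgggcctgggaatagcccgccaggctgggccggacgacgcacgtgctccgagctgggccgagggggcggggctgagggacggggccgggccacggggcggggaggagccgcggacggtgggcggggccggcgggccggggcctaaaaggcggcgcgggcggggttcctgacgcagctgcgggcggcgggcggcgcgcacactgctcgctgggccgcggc

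The first base of the match lay 37 bases after the start site in SLC3A2 (CTTACATCA, the core read on the reverse strand), 97 bases before it in SLC1A5 (TGATGCAAG), 8 bases before it in SLC1A4 (TTTGCATCA, reverse strand), 4 bases before it in SLC38A1 (TGATGAAAA) and 8 bases after it in SLC7A1 (TGATGAAAC). The windows of SLC7A1 and SLC7A5 surround the outermost start of the gene, and the other 4 a start inside it. The windows differ in base composition, with G or C at 43.3% of the positions of the SLC38A1 window and at 82.0% of those of the SLC7A1 window. All 5 genes with a match were called higher in mQ, as were SLC7A5 and SLC38A2 without one and SLC7A11, which had no window. Of these 5 genes, SLC3A2 and SLC1A4 were called higher in siCTU2. Among the other lists, the core was in 4 of 15 amino acid response genes with a window (ATF3, CHAC1, ASNS and CEBPG), in 1 of 15 other plasma membrane amino acid transporters and in 0 of 13 other plasma membrane carriers and pumps.

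SLC3A2 (chr11:62856109-62888860), the heavy chain shared by the SLC7 light chains, rose in both experiments. Its level at 0 h in the T arm was 519, 396 and 635 CPM in mQ and 184, 212 and 194 CPM in pQ. Every mQ library lay above every pQ library, and the log2 change was 1.45 (SE 0.15, adjusted p = 8.66e-05). After transfection its level was 392.1, 412 and 280.3 CPM in siCTU2 and 163, 180.2 and 165 CPM in siGL2. The groups again did not overlap, although replicate 3 of siCTU2 was closer to the controls than the others, and the log2 change was 1.09 (SE 0.11, adjusted p = 3.46e-07). The TCHX arm at 0 h, a separate set of libraries, gave 529 to 637 CPM in mQ and 189 to 248 in pQ, where replicate 3, 1 of the 3 libraries that stood apart, was the highest and the others had 197 and 189, and 327 to 372 in siCTU2 and 165 to 174 in siGL2. The snoRNA host gene SNHG1, a neighbour of SLC3A2, had 378 to 7767 counts per library. Whether any of its reads were counted for SLC3A2 in these 3′ end libraries was not tested.

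SLC7A5 (chr16:87830023-87869507) encodes LAT1, the light chain that exchanges intracellular glutamine for leucine and other large neutral amino acids. At 0 h it had 852, 922 and 823 CPM in mQ and 209.9, 209.8 and 240.5 CPM in pQ. Every mQ library was far above every pQ library, and the log2 change of 2.03 (SE 0.10, adjusted p = 2.83e-07) was exceeded by 0.5495% of all genes. In the siRNA experiment it had 334, 393 and 331 CPM in siCTU2 and 228, 219 and 229 CPM in siGL2. These groups did not overlap and the log2 change was 0.64 (SE 0.08, adjusted p = 2.97e-06). Tested against a change of 1.5-fold, the rise in siCTU2 was not called (adjusted p = 0.53), while that in mQ was (adjusted p = 1.74e-06). In the TCHX arm the rise in siCTU2 was 1.01 (adjusted p = 1.38e-08) and that in mQ 1.64 (adjusted p = 0.000578), or 1.87 (adjusted p = 5.56e-12) without replicate 3 of pQ. The near-identical copies listed as SLC7A5P2 and SLC7A5P2_1 held at most 1 and 9 counts in any library.

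SLC7A6 (chr16:68264526-68301819), the light chain y+LAT2 that exports cationic amino acids in return for neutral ones and sodium, was the member whose values differed in sign between the experiments. In siCTU2 and siGL2 it had 39.7, 47.5 and 39.5 and 24.02, 22.1 and 20.7 CPM. The siCTU2 libraries were all higher, with a log2 change of 0.92 (SE 0.13, adjusted p = 1.65e-05). In mQ and pQ it had 24.3, 20.7 and 17.5 and 26.9, 27.5 and 27.7 CPM. Here every mQ library was below every pQ library, but the log2 change of -0.34 (SE 0.16, adjusted p = 0.129) was not past the threshold. With the 0 h libraries of both arms together it was called lower, at -0.29 (adjusted p = 0.0305), and at -0.32 (adjusted p = 0.019) without replicate 3 of pQ in the TCHX arm. These fits counted the T and TCHX libraries of a replicate as independent samples, which can make their p-values too small. SLC7A6OS, annotated on the opposite strand beside it, had 179 to 588 counts per library. The strand setting of the counting is not given in the sources used here, so reads where both genes overlap cannot be told apart.

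SLC7A11 (chr4:138164097-138242349) encodes xCT, which imports cystine for glutathione synthesis and exports glutamate. In siCTU2 and siGL2 it had 431, 479 and 432 and 56.9, 63.03 and 72.8 CPM. The groups lay far apart, and the log2 change of 2.80 (SE 0.09, adjusted p = 1.82e-13) was exceeded by 0.366% of all genes. In mQ and pQ it had 442, 389.7 and 586 and 99.9, 137 and 135 CPM. The log2 change was 1.98 (SE 0.16, adjusted p = 1.70e-05), and 0.598% of all genes had a larger one. The control libraries of the experiments also differed, since all pQ libraries were above all siGL2 libraries, a difference between experiments for which no test was made. In the TCHX arm the rise was 2.71 (adjusted p = 1.36e-13) in siCTU2 and 2.07 (adjusted p = 0.00073) in mQ, or 2.35 (adjusted p = 1.37e-11) without replicate 3 of pQ. SLC7A11-AS1, annotated antisense to it, had at most 1 count in any library.

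SLC7A1 (chr13:29509414-29595688), the cationic amino acid transporter CAT1 that imports arginine and lysine, rose in mQ. It had 189, 165 and 215 CPM in mQ and 87.3, 83.2 and 97.01 CPM in pQ, and the log2 change was 1.14 (SE 0.12, adjusted p = 0.000102). The lowest mQ library was well above the highest pQ library. In the siRNA experiment it had 95.3, 89.2 and 79.7 CPM in siCTU2 and 97.7, 96.4 and 103 CPM in siGL2. All siCTU2 libraries were slightly below all siGL2 libraries, and the log2 change of -0.17 (SE 0.09, adjusted p = 0.134) was not past the threshold. With both arms together it was called lower, at -0.14 (adjusted p = 0.0462). That fit again counted the T and TCHX libraries of a replicate as independent samples.

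The related exchangers SLC1A5 (ASCT2, chr19:46774883-46788594), a main entry route for glutamine, and SLC1A4 (ASCT1, chr2:64988479-65023865), which carries serine, alanine and other small neutral amino acids, both rose in mQ. SLC1A5 had 505, 435 and 536 CPM in mQ and 204, 224 and 235 CPM in pQ, with a log2 change of 1.21 (SE 0.11, adjusted p = 2.87e-05). Its groups did not overlap. After transfection SLC1A5 had 262, 246 and 244 CPM in siCTU2 and 249, 266 and 229.7 CPM in siGL2. These groups overlapped, and the log2 change was 0.01 (SE 0.07, adjusted p = 0.927). SLC1A4 had 714, 869.7 and 804 CPM in mQ and 372, 348 and 339 CPM in pQ, with a log2 change of 1.23 (SE 0.10, adjusted p = 1.85e-05), and its mQ libraries were all above its pQ libraries. After transfection SLC1A4 had 399, 372 and 371 CPM in siCTU2 and 330.2, 263 and 267 CPM in siGL2. The siCTU2 libraries were all higher, though replicate 1 of siGL2 came close, and the log2 change of 0.41 (SE 0.08, adjusted p = 0.000798) was not called when tested against 1.5-fold (adjusted p = 1).

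SLC38A1 (SNAT1, chr12:46183063-46269043) and SLC38A2 (SNAT2, chr12:46358188-46372773) are neighbours on chromosome 12 and encode sodium-coupled importers of glutamine and other small neutral amino acids. SLC38A1 had 169.8, 135 and 202 CPM in mQ and 75.9, 66.5 and 65.2 CPM in pQ. The log2 change was 1.34 (SE 0.14, adjusted p = 0.000105), and the groups did not overlap. Transfected cells had SLC38A1 at 52.5, 61.9 and 61.8 CPM in siCTU2 and 57.98, 60.2 and 50.5 CPM in siGL2, groups that overlapped, with a log2 change of 0.06 (SE 0.11, adjusted p = 0.691). SLC38A2, known to be induced when amino acids are removed, had 307, 331 and 402 CPM in mQ and 156, 166 and 165 CPM in pQ. The log2 change was 1.15 (SE 0.12, adjusted p = 8.33e-05), again without overlap. Transfected cells had SLC38A2 at 219, 242 and 235 CPM in siCTU2 and 206, 233 and 216 CPM in siGL2. The groups overlapped and the log2 change was 0.08 (SE 0.07, adjusted p = 0.409).

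SLC6A9 (chr1:43996483-44031462), the sodium- and chloride-coupled glycine transporter GLYT1, was hardly detected. It had 0 counts in 55 of the 72 libraries, 45 counts in all and at most 11 in a library (0.982 CPM), and did not pass the filter on low counts in any comparison. A difference between groups was not detectable at this depth.

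Whether the 2 experiments moved a transporter by different amounts was tested as an interaction over the 12 T arm 0 h libraries, a comparison added after the data had been seen. The difference is signed, so a higher value is a more positive log2 change and not always a larger one. Of all 12950 genes, 16.1% were called higher in mQ than in siCTU2 and 15.9% lower, and of the 9 members 6 were higher and 2 lower. The mQ effect exceeded the siCTU2 effect by 1.39 (SE 0.13, adjusted p = 2.10e-07) on the log2 scale for SLC7A5 and by 1.32 (SE 0.15, adjusted p = 3.55e-06) for SLC7A1. For SLC1A5, SLC38A1, SLC38A2 and SLC1A4, the difference was 1.20, 1.28, 1.07 and 0.82, all past the threshold. In the TCHX arm the difference was smaller for SLC7A5, at 0.63 (adjusted p = 0.0281), or 0.85 (adjusted p = 4.24e-05) without replicate 3 of pQ, and for SLC1A4, at 0.50 (adjusted p = 0.0112), or 0.53 (adjusted p = 0.00289). SLC7A1, SLC1A5, SLC38A1 and SLC38A2 had 1.11, 1.22, 1.58 and 1.16 there. For SLC7A6 the signed change was lower in mQ than in siCTU2, by -1.26 (SE 0.19, adjusted p = 7.71e-05), also past the threshold. For SLC7A11 the difference was -0.81 (SE 0.20, adjusted p = 0.00442), but it was not called in the TCHX arm, at -0.64 (adjusted p = 0.081), or there without replicate 3 of pQ, at -0.37 (adjusted p = 0.136). For SLC3A2 the difference of 0.36 (SE 0.21, adjusted p = 0.2) was not past the threshold. It was 0.62 (adjusted p = 0.0146) without replicate 2 and 0.57 (adjusted p = 0.00093) in the TCHX arm without replicate 3 of pQ. The labels describe transfection for the siRNA cells alone, so the difference between treatments and that between experiments cannot be told apart.

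Further lists of transporters were counted beside the shares of all genes given above (12.5% higher and 12.4% lower in mQ, 17.8% and 18.2% in siCTU2). Of 22 further plasma membrane amino acid transporters, 8 were tested in the medium experiment, where 1 was called higher and 3 lower. SLC43A1 (LAT3), which carries branched-chain amino acids, rose by 0.93 (SE 0.13, adjusted p = 0.00073). SLC6A6, the taurine transporter, changed by -1.54 (SE 0.19, adjusted p = 0.000244). SLC1A1, a glutamate and aspartate importer, changed by -2.13 (SE 0.59, adjusted p = 0.0218) from a low level, 3.39 ± 0.848 CPM in pQ and 0.754 ± 0.691 in mQ, and the call was lost without replicate 1 of pQ (adjusted p = 0.0857) or replicate 3 of pQ (adjusted p = 0.0662). In the siRNA experiment 9 were tested, 2 were called higher (SLC6A6, 0.57 (SE 0.13, adjusted p = 0.00248), and SLC43A1, 0.38 (SE 0.13, adjusted p = 0.0299)) and 1 lower (SLC7A2, -0.71 (SE 0.15, adjusted p = 0.00115)). The call of SLC43A1 there was lost without replicate 1 of siCTU2 (adjusted p = 0.104), replicate 2 of siCTU2 (adjusted p = 0.0643) or replicate 1 of siGL2 (adjusted p = 0.157). Of the 7 lysosomal amino acid transporters, 1 was higher and 1 lower in mQ (MFSD12, 0.78 (SE 0.11, adjusted p = 0.000659), and SLC15A4, -0.78 (SE 0.17, adjusted p = 0.00664)) and 1 was higher in siCTU2 (MFSD12, 0.53 (SE 0.07, adjusted p = 4.50e-06)). Of the 7 mitochondrial carriers tested, 0 were higher and 3 lower in mQ, led by SFXN1, the mitochondrial serine carrier (-0.78 (SE 0.10, adjusted p = 0.000477)), and SLC25A15, the ornithine carrier (-0.71 (SE 0.16, adjusted p = 0.00842)), whose call was lost without replicate 2 of pQ (adjusted p = 0.0505). In siCTU2, SLC25A29, a carrier of basic amino acids, was higher (0.47 (SE 0.11, adjusted p = 0.00323)) and 3 were lower, led by SLC25A38, a glycine carrier (-0.62 (SE 0.13, adjusted p = 0.00147)), and SFXN1 (-0.61 (SE 0.08, adjusted p = 4.59e-06)).

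Among carriers and pumps for other solutes, 16 were tested in mQ against pQ, with 1 higher (SLC2A3, 0.84 (SE 0.14, adjusted p = 0.00205)) and 3 lower, led by SLC29A1, a nucleoside transporter (-0.85 (SE 0.10, adjusted p = 0.000244)), and the glucose transporter SLC2A1 (-0.72 (SE 0.12, adjusted p = 0.00183)). In siCTU2, 6 of 15 were higher, led by SLC4A7, a bicarbonate transporter (0.65 (SE 0.08, adjusted p = 2.03e-06)), and SLC2A1 (0.63 (SE 0.10, adjusted p = 6.18e-05)), and 3 lower, led by SLC5A3, the myo-inositol importer (-1.60 (SE 0.10, adjusted p = 1.38e-09)), and SLC20A1, a phosphate importer (-0.49 (SE 0.07, adjusted p = 1.10e-05)). In the TCHX arm 5 of the calls in mQ named from these lists were lost, MFSD12 0.41 (adjusted p = 0.0673), SFXN1 -0.42 (adjusted p = 0.117), SLC25A15 -0.25 (adjusted p = 0.539), SLC2A3 0.63 (adjusted p = 0.0505) and SLC2A1 -0.36 (adjusted p = 0.156). Without replicate 3 of pQ in that arm they were 0.49 (adjusted p = 0.000804), -0.57 (adjusted p = 0.000318), -0.48 (adjusted p = 0.0199), 0.83 (adjusted p = 8.16e-05) and -0.48 (adjusted p = 0.00284), in the same order. Amino acid response genes, the targets and partners of ATF4, were called higher in 14 of 14 tested in mQ, with a median of 2.37. CHAC1, which degrades glutathione, rose by 6.05 (SE 0.19, adjusted p = 5.94e-09). TRIB3, a pseudokinase induced by ATF4, rose by 3.20 (SE 0.16, adjusted p = 2.83e-07). In siCTU2, 4 of the 14 were higher and 1 lower, with a median of 0.07. STC2, a secreted glycoprotein, rose by 1.24 (SE 0.20, adjusted p = 9.90e-05) there, ATF3, a transcription factor induced by stress, by 1.09 (SE 0.23, adjusted p = 0.00106), and TRIB3 fell by 0.46 (SE 0.12, adjusted p = 0.00677). ASNS and SESN2 were among the 16 listed and were not tested because of low counts.

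Across the 24 groups, the genes whose mean log2(CPM + 1) ran most like each transporter's were sought among 8224 genes with at least 10 CPM on average, where the values in parentheses are Pearson's r over 24 group means. Group means share libraries and scaling, so r is a description without a test. The genes nearest to SLC6A9 are left out, as its counts were too few. The nearest to SLC7A5 were AARS1 (0.985), NIBAN1 (0.967) and DDR2 (0.941). Those of SLC38A1 were PSAT1 (0.991), SLC31A1 (0.981) and NUPR1 (0.978), of which PSAT1 makes serine and NUPR1 is a stress-induced nuclear protein. SLC1A4 ran closest to EIF2S2 (0.986), SLC43A1 (0.976) and NIBAN1 (0.965), and SLC7A1 to ANKRD11 (0.986), TRIB3 (0.977) and CTH (0.9703). The genes nearest to SLC3A2 were OGT (0.964), PMAIP1 (0.9597) and MTHFD1L (0.953). For SLC7A11 they were TCAIM (0.963), ANKRD20A8P (0.956) and ADD3 (0.949), for SLC7A6 IGSF3 (0.957), COBL (0.944) and OSBPL3 (0.941), for SLC1A5 CSNK2A1 (0.941), HEXA (0.931) and PACSIN2 (0.928) and for SLC38A2 S100PBP (0.958), KLF7 (0.948) and SLC25A36 (0.945). No member was among the 3 genes nearest to another member. When the 3 libraries that stood apart were left out of the means, 18 of these 27 genes were still among the 3 nearest, and r was 0.929 to 0.9902.

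Decay was followed in the T arm, where triptolide was given to block transcription. Levels were scaled to stable genes, which the study's methods define by a CPM that rises after the block, so every change over time is read against those genes. After 3 h, 8 of the 9 transporter mRNAs had fallen in siCTU2 and in siGL2 and 9 of 9 in mQ and in pQ, and 0 were called higher on this scale. The bulk of mRNAs fell as well. Called lower were 67.1% of all genes in siCTU2, 57.2% in siGL2, 69.6% in mQ and 72% in pQ, and higher 1.36%, 1.13%, 1.08% and 0.963%. The members' median log2 change was -0.49, -0.51, -0.67 and -0.66 in siCTU2, siGL2, mQ and pQ, and that of all genes was -0.55, -0.47, -0.72 and -0.70. When libraries were instead scaled to the bulk of mRNAs (TMM), the change took a positive sign for 7 members in siCTU2, 4 in siGL2, 6 in mQ and 6 in pQ, so that most of these falls hold only relative to the stable genes. With TMM, members called lower numbered 1, 3, 1 and 1, and SLC7A5 (siCTU2 and siGL2), SLC1A4 (siCTU2, 0.23 (adjusted p = 0.0236)) and SLC1A5 (mQ, 0.30 (adjusted p = 0.0355)) were called higher.

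**Figure D3:**
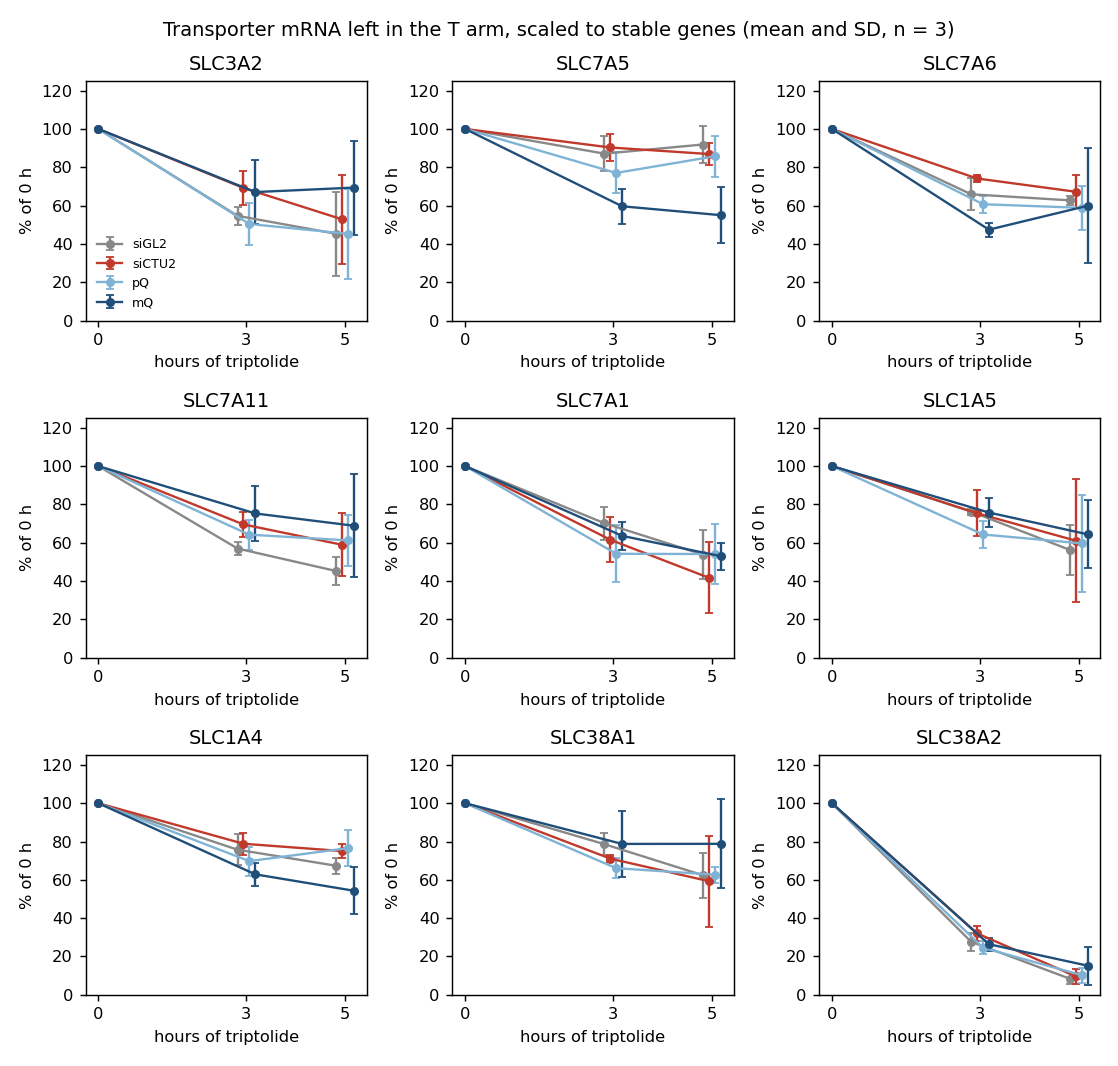
mRNA left in the T arm (percent of the same replicate's 0 h library, scaled to stable genes) against hours of triptolide, as mean and SD of 3 libraries for each condition. SLC38A2 had 24.6% ± 3.405 to 32.1% ± 3.76 left at 3 h, and with TMM scaling each of the other 8 members' changes took a positive sign in at least 1 condition.

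SLC38A2 was the exception, with a fall that was called under both scalings in all 4 conditions. At 3 h its mRNA left in the T arm was 31.5%, 29.1% and 22.5% of the 0 h level in the 3 siGL2 libraries and 30.3%, 36.4% and 29.5% in those of siCTU2. It was 26.7%, 26.3% and 20.6% in pQ and 25.01%, 30.2% and 24.04% in mQ. The ranges of the conditions overlapped, except that all pQ libraries were below all siCTU2 libraries. The log2 change was -1.64 (SE 0.11, adjusted p = 7.75e-11) in siCTU2, -1.85 (SE 0.13, adjusted p = 5.98e-10) in siGL2, -1.93 (SE 0.17, adjusted p = 9.18e-09) in mQ and -2.03 (SE 0.13, adjusted p = 1.79e-08) in pQ. Relative to the median of all genes it fell by 1.09, 1.38, 1.21 and 1.33. Between 6.55% (siGL2) and 9.26% (mQ) of all genes fell further. With TMM scaling the change was -1.07, -1.36, -1.21 and -1.31, called in each condition. At 5 h, 9.98%, 9.94% and 5.18% was left in siGL2, 9.45%, 13.6% and 5.87% in siCTU2, 10.3%, 13.98% and 6.37% in pQ and 8.68%, 10.3% and 26.6% in mQ. The third mQ library, 1 of the 3 with counts for many more genes, stood apart from all others. It had 25.9 CPM of JUN, against 1.18 and 0.225 in replicates 1 and 2 at 5 h and 15.5 to 34.4 at 0 h. Whether transcription was blocked in this library was not tested.

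SLC7A5 had the smallest of the members' changes in siCTU2, siGL2 and pQ but not in mQ, where only SLC38A2 and SLC7A6 fell further. At 3 h in the T arm, 77.4%, 88.03% and 95.9% was left in siGL2 and 88.4%, 84.2% and 98.3% in siCTU2, and the changes of -0.20 (SE 0.09, adjusted p = 0.0577) and -0.15 (SE 0.10, adjusted p = 0.179) were not past the threshold. Relative to the bulk of mRNAs (TMM) SLC7A5 was called higher in both, at 0.30 (adjusted p = 0.0181) and 0.42 (adjusted p = 0.000799). With replicate as a block, its fall in siGL2 relative to stable genes was called (adjusted p = 0.0104). In the medium experiment 69.6%, 89.3% and 72.2% was left in pQ and 57.6%, 51.7% and 69.6% in mQ, where the log2 change was -0.38 (SE 0.16, adjusted p = 0.0457) and -0.75 (SE 0.15, adjusted p = 0.000185) relative to stable genes, and 0.35 and -0.04 with TMM.

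The heavy chain SLC3A2 had a mean of 54.6% ± 4.76 (SD, n = 3) left at 3 h in siGL2 and 69.2% ± 9.03 in siCTU2, and 50.4% ± 11.02 in pQ and 67.04% ± 16.7 in mQ. SLC7A11 had 56.96% ± 3.201, 69.5% ± 6.62, 64.2% ± 7.85 and 75.3% ± 14.3 in the same order. For both mRNAs the siGL2 libraries lay below all siCTU2 libraries. Their falls in siGL2, -0.87 (SE 0.12, adjusted p = 4.70e-06) for SLC3A2 and -0.82 (SE 0.11, adjusted p = 3.73e-06) for SLC7A11, were also called with TMM, at -0.37 and -0.32, whereas with TMM both took a positive sign in siCTU2 and mQ and SLC7A11 did so in pQ. The neutral exchangers were left at 64.3% ± 6.93 to 76.2% ± 1.61 (SLC1A5) and 62.9% ± 6.05 to 78.8% ± 5.66 (SLC1A4). The remaining mRNAs ranged from 47.4% ± 3.69 (SLC7A6 in mQ) to 78.7% ± 17.1 (SLC38A1 in mQ).

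With translation blocked as well (TCHX arm), 7 of the 9 members had fallen at 3 h in siCTU2 and 9 of 9 in siGL2, mQ and pQ, relative to stable genes, with 0 higher in each. Of all genes, 37.3%, 60.5%, 69.9% and 59.9% were called lower in siCTU2, siGL2, mQ and pQ, and 1.42%, 1.31%, 1.11% and 0.562% higher. In siCTU2, SLC3A2 (-0.22 (SE 0.14, adjusted p = 0.223)) and SLC7A6 (-0.16 (SE 0.12, adjusted p = 0.317)) did not pass the threshold. The members' medians were -0.38, -0.57, -0.58 and -0.67, against -0.32, -0.48, -0.61 and -0.57 over all genes. TMM scaling gave a positive sign for 2, 2, 5 and 2 of the members called lower. Sign changes of members called under neither scaling, SLC3A2 and SLC7A6 in siCTU2, were not counted. The pQ values rest on replicate 3 of its TCHX arm at 0 h. Without that library 9 of 9 members were called lower, with a median of -0.65, and SLC38A2 changed by -1.43 (adjusted p = 2.12e-07) against -1.39 (SE 0.13, adjusted p = 7.24e-06) with it.

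The mRNA that the block of translation preserved was read from TCHX against T at 3 h, where SLC38A2 was called higher in all 4 conditions. In siGL2, 43.7%, 48.6% and 36.5% of SLC38A2 was left with cycloheximide. In siCTU2 it was 60.2%, 57.6% and 45.6%, in pQ 39.3%, 38.00% and 37.4% (the last against the 0 h library that stood apart) and in mQ 45.3%, 46.7% and 45.5%. In each condition every TCHX library lay above every T library. The log2 difference was 0.56 (SE 0.11, adjusted p = 0.000946) in siCTU2, 0.63 (SE 0.13, adjusted p = 0.0027) in siGL2, 0.91 (SE 0.16, adjusted p = 0.000346) in mQ and 0.58 (SE 0.13, adjusted p = 0.0126) in pQ. Relative to the median of all genes it was 0.43, 0.59, 0.75 and 0.53, and 11.9% (mQ) to 17.7% (siCTU2) of all genes had a larger difference. It was also called under TMM in all 4. It was not called in siCTU2 (adjusted p = 0.123) and pQ (adjusted p = 0.0847) when stable genes had to rise at both times. Without replicate 1 the call was lost in siGL2 (adjusted p = 0.0669) and pQ (adjusted p = 0.327), and without replicate 2 in pQ (adjusted p = 0.0692).

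**Figure D4:**
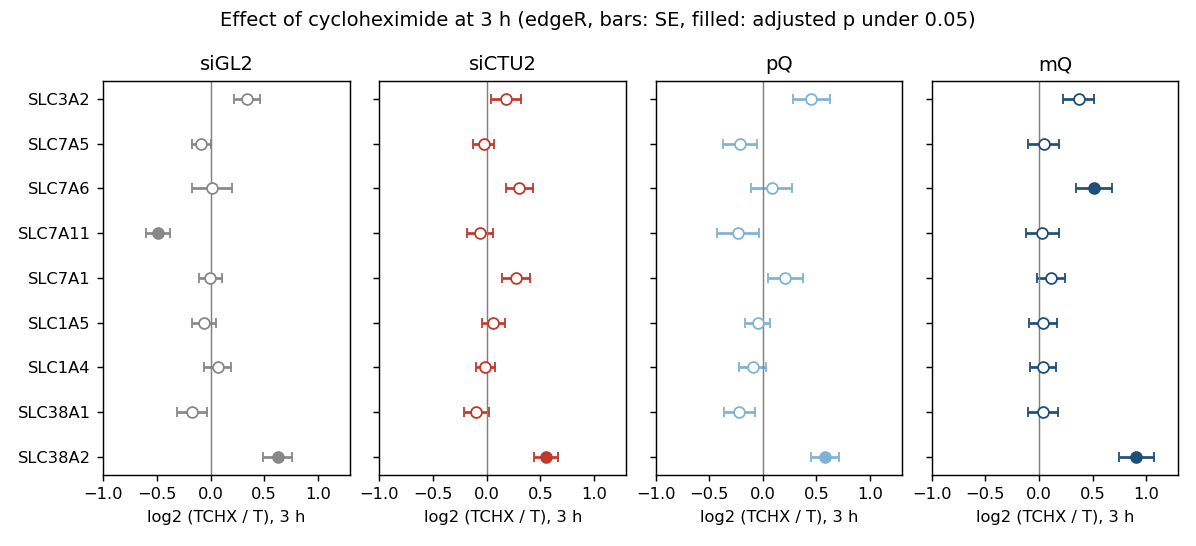
log2 difference between the TCHX and T arms at 3 h with its standard error for each tested transporter in the 4 conditions, with filled points where the adjusted p was under 0.05. SLC38A2 lies between 0.56 and 0.91 in all 4, and SLC7A11 in siGL2 is the only called value below 0 (-0.49).

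**Figure D5:**
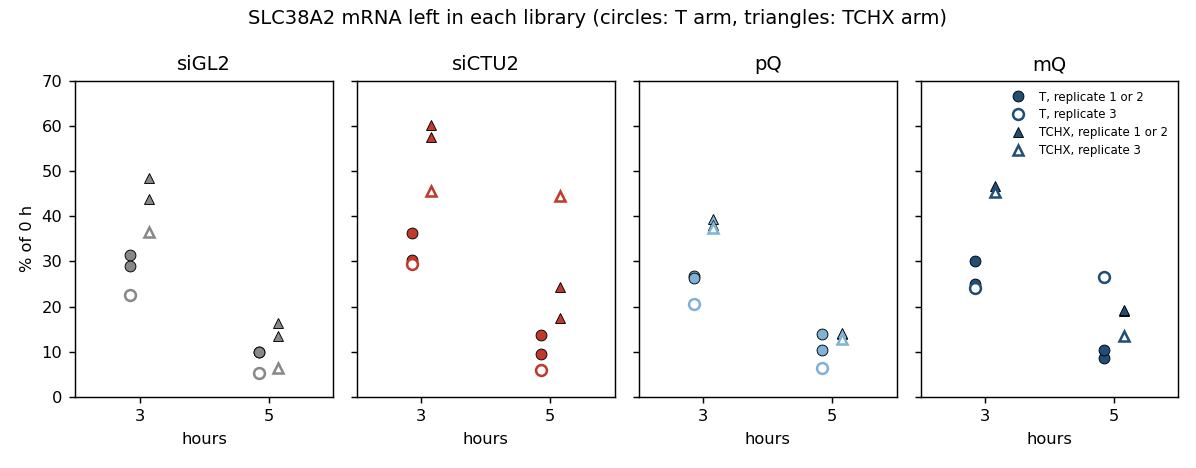
SLC38A2 mRNA left (percent of the same replicate's 0 h library of that arm, scaled to stable genes) at 3 and 5 h in each library, with circles for the T arm, triangles for the TCHX arm and open symbols for replicate 3. At 3 h all TCHX libraries lie above the T libraries of their condition, and at 5 h replicate 3 of mQ (T arm) and of siCTU2 (TCHX arm) lie far above replicates 1 and 2.

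At 5 h the difference for SLC38A2 was 1.38 (adjusted p = 0.0161) in siCTU2 and was not called in siGL2, mQ or pQ, where it was 0.52 (adjusted p = 0.552), 0.15 (adjusted p = 0.905) and 0.35 (adjusted p = 0.592). With the replicate 3 libraries of 0 and 5 h left out in both arms, it was 0.59 (adjusted p = 0.0792) in siCTU2, 0.54 (adjusted p = 0.0133) in siGL2, 1.22 (adjusted p = 3.89e-05) in mQ and 0.19 (adjusted p = 0.5) in pQ. Leaving out replicate 3 thus changed the call in 3 of the 4 conditions.

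The other members mostly showed no called difference between the arms. Members called higher numbered 1 of 9 in siCTU2, 1 in siGL2, 2 in mQ and 1 in pQ, where 14.5%, 8.45%, 16% and 5.42% of all genes were called higher. Members called lower numbered 0, 1, 0 and 0, against 0.144%, 0.42%, 0.0919% and 0.0924% of all genes. The members' medians of 0.06, 0.00, 0.04 and -0.05 were below those of all genes, 0.13, 0.04, 0.16 and 0.05. Of the 14 amino acid response genes tested, 6 were called higher in siCTU2, 6 in siGL2, 8 in mQ and 6 in pQ and 0 lower, with medians of 0.63, 0.63, 0.76 and 0.55.

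SLC7A11 was lower with cycloheximide in siGL2. There 59.9%, 57.4% and 53.5% was left in the T arm and 39.1%, 39.2% and 39.6% in the TCHX arm, without overlap, and the log2 difference was -0.49 (SE 0.11, adjusted p = 0.00492). It was -0.54 (adjusted p = 0.00342) with TMM and -0.75 (adjusted p = 0.00127) at 5 h without replicate 3, but -0.52 (adjusted p = 0.0535) without replicate 1, -0.46 (adjusted p = 0.113) without replicate 2 and -0.41 (adjusted p = 0.226) with genes stable at both times. In siCTU2, mQ and pQ the difference was -0.06 (SE 0.12, adjusted p = 0.834), 0.03 (SE 0.16, adjusted p = 0.95) and -0.23 (SE 0.20, adjusted p = 0.721). The difference between siCTU2 and siGL2 in this effect was 0.43 (SE 0.17, adjusted p = 0.528) and not past the threshold.

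SLC7A6 was higher with cycloheximide in mQ at 0.51 (SE 0.17, adjusted p = 0.0473), a call that was lost without any 1 replicate (adjusted p = 0.0799, 0.206 and 0.398 without replicates 1, 2 and 3) and with TMM (adjusted p = 0.206). SLC3A2 had positive values in all 4 conditions, 0.18 (SE 0.14, adjusted p = 0.524) in siCTU2, 0.34 (SE 0.12, adjusted p = 0.0829) in siGL2, 0.37 (SE 0.15, adjusted p = 0.107) in mQ and 0.45 (SE 0.17, adjusted p = 0.175) in pQ, none past the threshold. With replicate as a block, which the same-numbered libraries allowed in mQ and pQ but not in siGL2, SLC3A2 was called in mQ (0.37 (adjusted p = 0.0408)) and pQ (0.47 (adjusted p = 0.028)). The block also raised the members called in siCTU2 from 1 to 3, by SLC7A1 (0.27 (adjusted p = 0.0343)) and SLC7A6 (0.30 (adjusted p = 0.0348)). At 5 h without replicate 3, SLC1A5 was lower with cycloheximide in pQ (-0.90 (adjusted p = 6.77e-07)), with -0.38 (adjusted p = 0.0575) in siGL2.

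No transporter was shown to decay differently between conditions. In edgeR interactions over 24 libraries, 0 of the 9 members had a T arm change over 3 h that differed between siCTU2 and siGL2, where 0.21% of all genes were called higher and 0.709% lower and 1056 of 13821 genes had an unadjusted p under 0.05. Nor did the effect of cycloheximide differ for any member, against 0.137% and 0.0506% of all genes, with 1030 genes at an unadjusted p under 0.05. Between mQ and pQ, 0 members differed in the T arm change (0.00731% and 0.102% of all genes, 1211 of 13680 unadjusted) and 0 in the effect of cycloheximide (0.0658% and 0%, 831 unadjusted). The differences for SLC3A2 were 0.33 (SE 0.20, adjusted p = 0.807) between siCTU2 and siGL2 and 0.34 (SE 0.23, adjusted p = 0.674) between mQ and pQ. For SLC7A5 the T arm change differed by -0.37 (SE 0.23, adjusted p = 0.63) between mQ and pQ, and for SLC38A2 the effect of cycloheximide differed by 0.33 (SE 0.22, adjusted p = 0.983). The standard errors of these differences, between 0.13 and 0.27 over the members, set the size of a difference that could be seen.

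The TDD index (translation-dependent decay) is the share of the 0 h count by which the scaled TCHX count exceeds the scaled T count, and was compared over 3 and 5 h by the linear model of the study's methods, which uses an unadjusted p of at most 0.05. By that rule 3 of the 9 members had a higher index in siCTU2 than in siGL2 and 1 a lower one, against 7.28% and 0.887% of all genes. In mQ against pQ 1 member was higher and 0 lower, against 3.48% and 1.3% of all genes. After Benjamini-Hochberg adjustment over all genes none of these passed, so they are given as values only. For SLC7A6 the index differed by 0.165 (SE 0.0585, adjusted p = 0.554) between siCTU2 and siGL2, and for SLC7A5 by 0.116 (SE 0.0420, adjusted p = 0.566). With each arm's own 0 h library as the base the difference of SLC7A5 was -0.0245, and that of SLC7A6 0.116. Leaving out 1 replicate gave 0.0808 to 0.152 for SLC7A5 and 0.111 to 0.227 for SLC7A6. Replicate 3 holds the 3 libraries that stood apart, and without it the difference was 0.115 for SLC7A5 and 0.227 for SLC7A6 in siCTU2 against siGL2, and 0.0809 for SLC7A5 in mQ against pQ, where it was 0.131 (SE 0.0530, adjusted p = 0.999) with all replicates. The index of SLC7A5 at 5 h was -0.00247, 0.175 and -0.0476 in siCTU2 and -0.102, -0.0834 and -0.295 in siGL2. Replicate 3 was the lowest of its group in both.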

How the data were processed

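Raw read counts for each gene name were deposited, made by the authors with fastp 0.20.1 (trimming), HISAT2 2.2.1 (mapping to GRCh38.p13) and HTSeq 0.13.5 (counting on exons), versions as in the submitters' processing notes. As no molecular identifiers are mentioned, PCR copies may be counted. The edgeR fits estimate the spread between libraries beside the counting error, and do not separate PCR copies from it. The table had 0 names of the spiked ERCC standards, and 0 columns were left unmatched. Depth was 5987692 to 15534331 counts per library.

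Counts were analysed in R 4.3.3 with edgeR 4.0.16 (filterByExpr, quasi-likelihood F-test, limma 3.58.1), with Benjamini-Hochberg adjustment over all genes tested and a threshold of 0.05. At 0 h the 6 T arm libraries of an experiment were fitted with TMM scaling. Changes over time were fitted in the 12 libraries of a condition at 0 and 3 h, and differences between conditions as interactions over 24. These were scaled to the median ratio of stable genes, after the study's methods. A gene was stable if, in every replicate and both arms of both conditions, its CPM exceeded 0.2 at 0 h, was at 3 or 5 h at least 1.1 times that at 0 h, and its 0 h CPM exceeded 0.1 times the later CPM. The siRNA experiment had 198 such genes, which held 4.30% of its counts, and the medium experiment 82, which held 2.51%, with 0 members among them, and the set was not redefined when libraries were left out. TDD indices were compared per gene with R's lm on condition, time and replicate, where the scaled 0 h count averaged 10 or more.

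Genes are named by a rule that takes all 10 members, the 3 genes most like each tested member over the group means, the 2 largest rises and falls of each further list, CTU2 and JUN. Genes that adjoin a member, share its promoter match or could not be tested are named outside it. The members, lists and tests were chosen with earlier results of these data known. Same-numbered libraries were called paired where their deviations from the group means correlated above 0.1 in every pair. This held at 0 h for siCTU2 and siGL2 (r = 0.104 to 0.304) but not for mQ and pQ (-0.177 to 0.133), between T at 3 h and 0 h in all conditions but mQ, and between TCHX and T at 3 h in all but siGL2 (0.096 to 0.493). The scripts were tested on simulated data. Alternatives were DESeq2 1.42.0, other scalings and filters, 5 h, a replicate block, and leaving out libraries.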

Additional observations from a re-analysis of the deposited data

Results flagged for a closer look

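The TDD index of 4 transporters differed between siCTU2 and siGL2 at an unadjusted p of at most 0.05 in the linear model, which is what marked them. It was higher in siCTU2 by 0.116 for SLC7A5 (adjusted p = 0.566), by 0.107 for SLC7A11 (adjusted p = 0.578) and by 0.165 for SLC7A6 (adjusted p = 0.554). For SLC1A4 the difference was -0.065 (adjusted p = 0.516). Between mQ and pQ the index of SLC7A5 differed by 0.131 (adjusted p = 0.999). None passed Benjamini-Hochberg adjustment, and with libraries scaled by TMM 0 of the 4 were called in the siRNA experiment.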

How the results depend on the processing

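Of 2318 values of single genes under alternatives, 35 turned sign and were called in the main or the alternative fit. Of these, 34 arose with TMM in place of stable-gene scaling. With the sign kept, 170 lost the call and 30 gained it. The other 2083 stayed on the same side of the threshold, and they include sign changes of values called in neither fit. With TMM the T arm change over 3 h turned positive in siCTU2 for SLC1A4 (0.23), SLC1A5 (0.16), SLC38A1 (0.079), SLC3A2 (0.030), SLC7A11 (0.048), SLC7A5 (0.42) and SLC7A6 (0.14), in siGL2 for SLC1A4 (0.087), SLC1A5 (0.11), SLC38A1 (0.16) and SLC7A5 (0.30), in mQ for SLC1A4 (0.031), SLC1A5 (0.30), SLC38A1 (0.32), SLC3A2 (0.078), SLC7A1 (0.044) and SLC7A11 (0.26), in pQ for SLC1A4 (0.20), SLC1A5 (0.081), SLC38A1 (0.12), SLC7A11 (0.070), SLC7A5 (0.35) and SLC7A6 (0.0026). Among members called lower relative to stable genes, that of the TCHX arm did so in siCTU2 for SLC1A4 (0.026) and SLC1A5 (0.035), in siGL2 for SLC1A4 (0.19) and SLC7A5 (0.24), in mQ for SLC1A4 (0.044), SLC1A5 (0.17), SLC3A2 (0.16), SLC7A1 (0.053) and SLC7A5 (0.042), in pQ for SLC3A2 (0.016) and SLC7A6 (0.069). The TDD index of SLC7A5 in the siRNA experiment turned to -0.0245 when each arm's own 0 h library was the base.

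With TMM, members called in either direction numbered 3, 4, 2 and 1 in the T arm (of which 2, 1, 1 and 0 were higher) and 1, 2, 0 and 1 in the TCHX arm of siCTU2, siGL2, mQ and pQ, 1 for TCHX against T in mQ and 0 for the TDD index in the siRNA experiment. Tested against 1.5-fold, 3 were called in siCTU2 at 0 h, against 5. At 5 h the count was 2 in the TCHX arm of siCTU2, and for TCHX against T it was 1 in siGL2 and 0 in mQ and pQ. At 5 h with the replicate 3 libraries of 0 and 5 h left out, it was 0 in siCTU2, 1 in mQ and 2 in pQ. With genes stable at both times, 8 and 3 in number, it was 0 in siCTU2, 1 in siGL2 and 0 in pQ. TDD calls were 0 (siRNA) and 2 (medium) at 3 h alone and 2 and 2 with each arm's own 0 h library. Leaving out 1 replicate gave 2 to 6 calls in the TCHX arm of siCTU2 and 5 to 9 in that of pQ, 0 to 2, 1 to 1 and 0 to 1 for TCHX against T in siGL2, mQ and pQ, and 0 to 2 for the TDD index in both experiments. The cause of these changes was not tested.

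With the replicate block, members called for TCHX against T rose from 1 to 3 in siCTU2 and from 1 to 2 in pQ. Without the block, TDD calls in the medium experiment fell to 0. At 0 h the blocked counts were 5 and 8, as without it.

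Over all genes, calls at 0 h went from 4429 to 982 (siRNA) and from 3071 to 293 (medium) when tested against 1.5-fold, and in the medium experiment to 810 in the TCHX arm and to 1638 and 1476 without replicate 1 or 2 of pQ. With TMM, T arm calls went from 9059, 7488, 9236 and 9473 to 3777, 2938, 3573 and 2427 in siCTU2, siGL2, mQ and pQ. The depth limits SLC6A9, which could not be tested.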
